A study of Homo sapiens with 4 samples.

Results

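Abundant structural and nuclear non-coding RNAs were followed through the peak lists of a Star-PAP HITS-CLIP experiment: MALAT1, NEAT1, RN7SK, RN7SL1, RN7SL2, RMRP, RPPH1 and SNORD3A. They were chosen by name for being abundant, by a rule that uses no peak values but was set with earlier results of these data known. GENCODE release 44 on hg19 carries 64486 genes of all types and names 6 of the 8, and RN7SL1 and RPPH1 were placed by alignment. Every peak summit inside one of these genes or within 500 bp of its ends was taken. This gave 3 of 411400 summits in the control library, 30 of 325797 after Star-PAP depletion and 25 of 294402 after RBM10 depletion.

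Star-PAP, encoded by TUT1, is a poly(A) polymerase of the nucleus that acts on selected mRNAs, and RBM10 is an RNA-binding splicing regulator. HITS-CLIP crosslinks proteins to RNA with ultraviolet light (here 400 mJ/cm2), pulls the protein down and sequences the RNA fragments that come with it. All 4 samples were HEK293 cells, an established human embryonic kidney line, grown alike and harvested 48 h after transfection: with no named siRNA (control, labelled StarPAP pulldown), with siRNA against Star-PAP (siStar-PAP), with siRNA against RBM10 (siRBM10), each pulled down with anti-Star-PAP antibody, and an IgG pull-down that entered only as the reference for peak calling. Each condition was 1 library of 1 cell line, the labels do not say whether control or IgG cells received a control siRNA, and no test between conditions was possible.

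Each list gives 1-bp summits with a score, the −log10 of the peak p-value against IgG, and neither strand, peak width nor tag number. The depth behind each list is therefore not known from the files, the study giving only approximate read totals for its Star-PAP samples as a whole, and a gene with no summit may still hold tags. The smallest scores were 1.30 in all 3 lists. The control list differed in make-up, with 63.2% of its peaks at the single score 1.33, against 22.8% at 2.92 in siStar-PAP and 22.7% at 3.25 in siRBM10. Scores depend on depth and were read within a list, as ranks. The lists hold no measure of RNA amount, so more of an RNA and more of it in the pull-down cannot be told apart. The depleted genes themselves cannot be checked from summits: TUT1 held 5 summits in control, 8 in siStar-PAP and 3 in siRBM10, and RBM10 held 7, 17 and 9.

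The 8 RNAs fall into a few machines of the cell. MALAT1 and NEAT1 are long RNAs of the nucleus, MALAT1 in nuclear speckles and NEAT1 as the scaffold of paraspeckles, and the 3′ ends of MALAT1 and of the long form of NEAT1 are made by RNase P cleavage and closed by a triple helix in place of a poly(A) tail. RPPH1 is the RNA of RNase P, and RMRP that of its relative RNase MRP, which acts on ribosomal RNA precursors. RN7SK holds the elongation factor P-TEFb inactive, RN7SL1 and RN7SL2 are genes for 7SL, the RNA of the signal recognition particle, and SNORD3A encodes U3, the small nucleolar RNA needed to process ribosomal RNA. The short RNAs are made by RNA polymerase III, apart from U3, which is made by RNA polymerase II.

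At each of the 6 short RNA loci, flanks included, there was exactly 1 summit in siStar-PAP and 1 in siRBM10, and these were 19 to 60 bp apart. They were inside the gene for 5 of the 6 and just upstream of it for SNORD3A. The stretches that carry these paired summits in RN7SK, RMRP, RPPH1 and SNORD3A are shown on the strand of the RNA, on hg19, because they are the places where both depletion libraries put their peak. Capitals run from the summit nearer to the 5′ end to the other, and 20 nt in lower case follow on each side.
RN7SK, chr6:52860476-52860576, + strand: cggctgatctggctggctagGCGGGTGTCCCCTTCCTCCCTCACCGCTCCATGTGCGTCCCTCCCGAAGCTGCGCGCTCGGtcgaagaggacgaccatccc
RMRP, chr9:35657904-35657963, − strand: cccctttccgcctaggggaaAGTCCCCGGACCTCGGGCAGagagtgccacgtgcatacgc
RPPH1, chr14:20811444-20811520, − strand: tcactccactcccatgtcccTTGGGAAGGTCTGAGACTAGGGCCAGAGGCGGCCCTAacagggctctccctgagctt
SNORD3A, chr17:19091273-19091346, + strand: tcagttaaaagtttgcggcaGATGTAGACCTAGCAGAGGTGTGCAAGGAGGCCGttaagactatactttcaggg

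Sequence and position were read from the reference genome. RN7SL1 and RPPH1 were placed by alignment of a close relative from the same annotation, RN7SL2 with 98.7% identity over 297 bases and an RPPH1 copy with 80.9% over 282 aligned bases, so the ends of RPPH1 in particular are approximate. The stretch placed for RPPH1 was 292 bases long, against 341 for the RNA in RefSeq, and its positions are counted from the end of that stretch. The SNORD3A entry spans 699 bp, although the RefSeq RNA has 217 bases.

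RN7SK (chr6:52860419-52860746, + strand, 328 bp) had its siStar-PAP summit at position 138 from the 5′ end with a score of 35.4, rank 9 in that list. Its siRBM10 summit lay at position 78 with a score of 34.8, rank 16. The nearest control summit was 7705 bp from the siStar-PAP summit. Both depletion lists thus placed the 7SK gene among their highest peaks, and the control list placed no summit on it.

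RN7SL1 (chr14:50053298-50053594, + strand, 297 bp, inside RPS29) carried summits at position 141 with a score of 12.3 (siStar-PAP, rank 78) and at position 172 with a score of 21.4 (siRBM10, rank 32). RN7SL2 (chr14:50329271-50329567, − strand, 297 bp) carried them at position 136 with a score of 17.6 (siStar-PAP, rank 28) and at position 170 with a score of 24.6 (siRBM10, rank 25). In both 7SL genes the siRBM10 summit was the more 3′ one, by 31 and 34 bp, an order found in 5 of the 6 short RNAs and turned round in RN7SK. The control list had no summit within 30804 bp of the RN7SL1 summit of siStar-PAP or within 4318 bp of that of RN7SL2.

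RMRP (chr9:35657751-35658014, − strand, 264 bp) had summits at position 72 with a score of 32.5 (siStar-PAP, rank 12) and position 91 with a score of 72.9 (siRBM10, rank 7). These were the closest pair, 19 bp apart. RPPH1 (chr14:20811259-20811550, − strand, within the lncRNA gene ENSG00000259001) had them at position 51 with a score of 63.8 (siStar-PAP, rank 7) and at position 87 with a score of 77.8 (siRBM10, rank 5). Among the short RNAs the RPPH1 summits had the highest score of each depletion list. The nearest control summits lay 14807 bp and 11704 bp from the siStar-PAP summits of RMRP and RPPH1.

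SNORD3A (chr17:19091329-19092027, + strand) was the only short RNA gene with a control summit, at position 292 with a score of 1.33, the commonest score of the control list. Counted from the start of the 699 bp entry, this is beyond the 217 bases of the RefSeq RNA. The summit is counted as inside the gene in all totals and densities here, because the whole entry was used. The summits of both depletion libraries were before the 5′ end of the gene, 36 bases upstream with a score of 19.6 in siStar-PAP (rank 23) and 3 bases upstream with a score of 18.8 in siRBM10 (rank 37). They were 327 and 294 bp from the control summit.

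**Figure D1:**
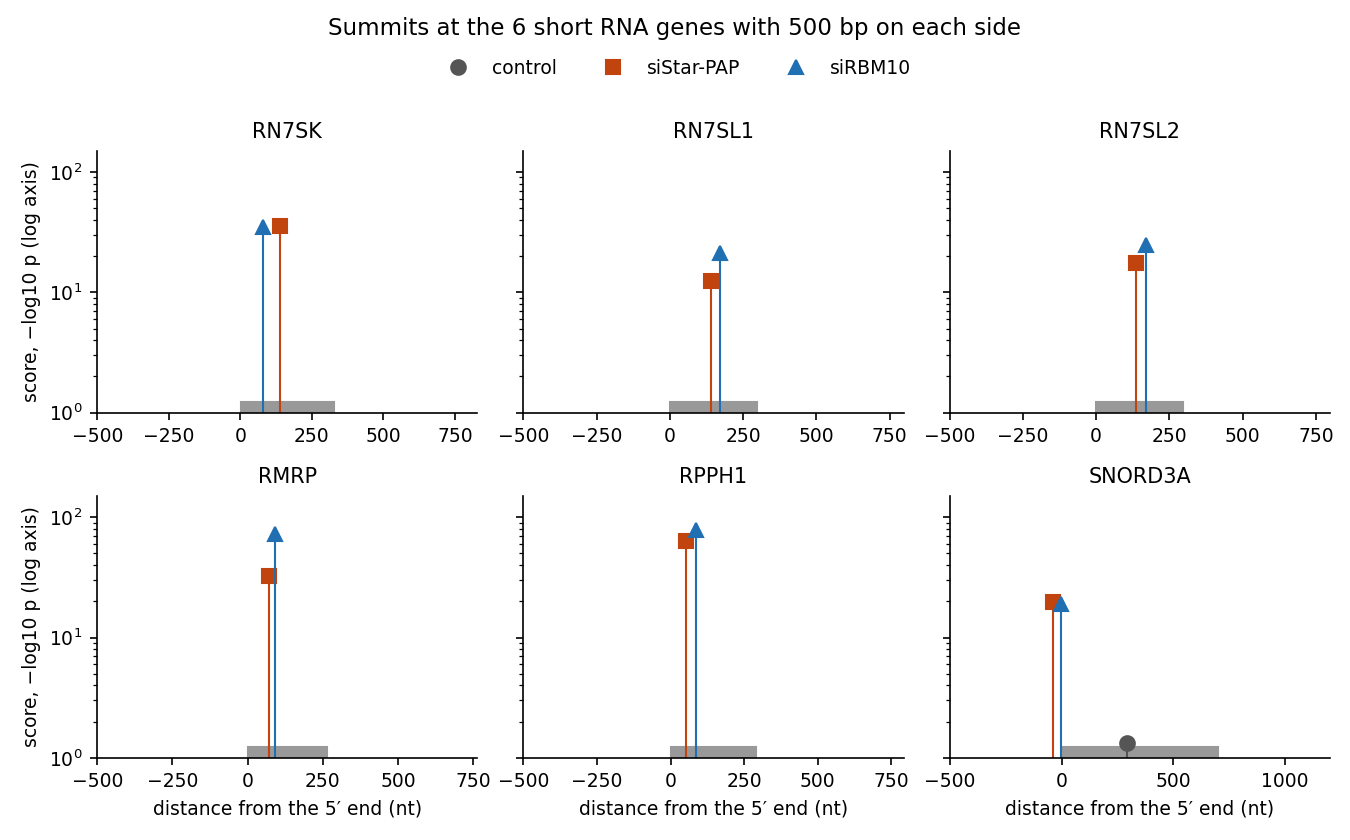
Summits of the control (circles), siStar-PAP (squares) and siRBM10 (triangles) libraries at the 6 short RNA genes, with the distance from the 5′ end in nt on the horizontal axis, the score as −log10 p on a log vertical axis and the gene as a grey bar. Each locus holds 1 square and 1 triangle, 19 to 60 bp apart with scores of 12.3 to 77.8, just upstream of the gene at SNORD3A and inside it elsewhere. The only circle is in SNORD3A, at a score of 1.33.

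A score of at least 10 was held by the summits of 6 of the 6 short RNAs in siStar-PAP (12.3 to 63.8), of 6 in siRBM10 (18.8 to 77.8) and of 0 in control. Over the whole lists, peaks that high made up 0.0436% in siStar-PAP, 0.0493% in siRBM10 and 0.103% in control, which is 142, 145 and 424 peaks. The ranks of the short RNAs ran from 7 to 78 in siStar-PAP and from 5 to 37 in siRBM10. The authors set a fragment size of 500 bp in peak calling, which is longer than 5 of these 6 genes, so 1 summit per gene is also near what such a gene can hold, and the position of a summit inside it is coarse.

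The 6 short RNAs differ in how well reads can be placed on them. Of the 30-base words of RMRP and RPPH1, 99.2% and 100% occurred at a single place in hg19. The figures were 9.37% for RN7SK, 3.73% for RN7SL2 and 0% for RN7SL1 and SNORD3A. Around the summits of these last 4 genes no 30-base word was unique, and with 60-base words the largest unique share was 5.94%, at the siRBM10 summit of RN7SK. The authors kept reads that mapped to 1 place with at least 18 nt. How many reads at RN7SK, RN7SL1, RN7SL2 and SNORD3A came from their copies was not tested, whereas the summits of RMRP and RPPH1 were in sequence where 30-base words were 97.2% and 100% unique.

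Annotated copies gave a view of the same sequences elsewhere. Of 291 annotated 7SK copies, 18 held a summit in control, 15 in siStar-PAP and 17 in siRBM10, and none of them reached a score of 10 in any list. Of 845 annotated 7SL copies, 28, 56 and 51 held a summit, with 0, 1 and 1 reaching that score. In the same order of libraries, the 7SK copies had 0.198, 0.165 and 0.187 summits per kb and the 7SL copies 0.115, 0.230 and 0.209. All protein-coding exons had 0.103, 0.225 and 0.203, so the 7SL copies were near that level in each list. RN7SL3, a further 7SL gene (chr14:50320336-50320632), held 1 summit per library, with scores of 2.51 in control, 28.2 in siStar-PAP and 37.6 in siRBM10. The other U3 genes were nearly empty: SNORD3B-1 and SNORD3C had no summit in any list, and SNORD3B-2 had 1, in siRBM10, with a score of 1.85.

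Other small structural RNAs served as a wider comparison: spliceosomal RNAs, Y RNAs, vault RNAs, telomerase RNA and small RNAs of the nucleolus and Cajal bodies. Of 34 listed, 29 were found in the annotation. A summit lay in or near 2 of them in control, 11 in siStar-PAP and 12 in siRBM10, and RN7SL3 was the 1 gene with a summit in all 3. Shares over all genes, which count exons alone and so are not a like measure, were also lowest in control. An exon summit was held by 15.0%, 21.7% and 20.3% of 18222 autosomal lncRNA genes. For 20163 protein-coding genes it was 35.4%, 58.3% and 55.8%. A score of at least 10 was reached in 0, 1 and 2 of the 29. Beside RN7SL3 this was RNU2-2P, a gene of the spliceosomal U2 RNA, named here after its values were seen, with 15.1 in siRBM10 and 3.06 in siStar-PAP. Among the 6 short members the same count was 0, 6 and 6.

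MALAT1 (chr11:65265111-65275544, + strand, 10434 bp, ENSG00000251562.11) had summits in every library, 2 in control, 6 in siStar-PAP and 2 in siRBM10. The control summits were at positions 1883 and 7801 with scores of 2.42 and 2.77. Those of siStar-PAP were at 2831, 3748, 4416, 5062, 6017 and 7837, with scores of 64.0, 5.36, 5.70, 8.01, 8.29 and 51.2. Those of siRBM10 were at 562 and 2066, with scores of 2.19 and 77.0. The highest MALAT1 summits had rank 6 in both depletion lists, and that at 7837 had rank 8 in siStar-PAP, whereas the control summits had ranks 54859 and 42113.

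The depletion libraries thus placed their strongest MALAT1 peak at different positions, 765 bp apart, and no siStar-PAP summit lay within 100 bp of a siRBM10 summit. The 1 coincidence was between control and siStar-PAP, at 7801 and 7837, 36 bp apart. These bases are shown because they are the only ones on MALAT1 that 2 libraries marked within 100 bp, and those around the strongest summits because the depletion libraries chose different ones. In the first line capitals run between the summits, and in the others they mark the 11 nt centred on the summit, with 20 nt on each side.
MALAT1 around positions 7801 and 7837, chr11:65272891-65272967, + strand: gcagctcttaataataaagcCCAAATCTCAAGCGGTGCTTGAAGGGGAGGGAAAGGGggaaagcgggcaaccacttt
MALAT1 around position 2831, chr11:65267916-65267966, + strand: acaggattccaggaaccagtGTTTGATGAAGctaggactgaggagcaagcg
MALAT1 around position 2066, chr11:65267151-65267201, + strand: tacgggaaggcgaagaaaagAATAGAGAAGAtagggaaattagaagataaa

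Control and siStar-PAP met at a place 1029 and 993 bp upstream of position 65273940 on chromosome 11, the commonest annotated MALAT1 transcript end, used by 11 of 66 transcripts. The remaining MALAT1 summits were 2813 to 8268 bp before that end. All control and siStar-PAP summits and 1 of 2 siRBM10 summits were also inside TALAM1, the antisense gene, whose overlap with MALAT1 is 8.12 kb, and without strand in the lists the transcripts cannot be told apart. Nearly all of MALAT1 can be mapped, as 97.5% of its 30-base words were unique.

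NEAT1 (chr11:65190245-65213011, + strand, 22767 bp, ENSG00000245532.11) had no control summit, neither in the gene nor in the flanks, and the nearest control summit was 4911 bp away from any siRBM10 summit and 5321 bp from any of siStar-PAP. In siStar-PAP it held 18 summits with scores from 1.73 to 22.9 (median 6.54), and in siRBM10 it held 17 with scores from 2.19 to 13.2 (median 4.48). NEAT1 therefore supplied more than any other member to the totals of both depletion lists. The highest siStar-PAP summits were at position 4469 with a score of 22.9 (rank 18), 19774 with 15.6 (rank 40), 700 with 12.8 (rank 75) and 17671 with 11.1 (rank 100). In siRBM10 they were at 16703 with 13.2 (rank 80) and 1392 with 11.7 (rank 101).

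The NEAT1 summits were spread over the whole gene, from position 700 to 22255 in siStar-PAP and from 290 to 22532 in siRBM10. Neighbouring summits were 514 to 2724 bp apart in siStar-PAP (median 1096 bp) and 558 to 3467 bp in siRBM10 (median 1169.5 bp), beside the fragment size of 500 bp. The first 3.684 kb, which the short polyadenylated form also contains, held 3 and 2 summits, or 0.814 and 0.543 per kb. The 19.083 kb that belong to the long form alone held 15 in each, 0.786 per kb (95% Poisson interval 0.440 to 1.30). These densities were inside each other's intervals, so a difference between both parts of the gene was not detectable at these counts.

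Most siStar-PAP summits on NEAT1 lay more than 100 bp from any siRBM10 summit. With a fragment size of 500 bp and no peak widths, whether the peaks covered the same bases cannot be told. Of the 18 siStar-PAP summits, 2 (11.1%) had a siRBM10 summit within 100 bp, while 14.4% of the NEAT1 locus lies that close to one. The median distance was 372.5 bp and the largest 1554 bp. The 2 coincident pairs, 30 and 17 bp apart, are shown with capitals between the summits, since no other NEAT1 summits of the 2 lists were within 100 bp. Their scores were unlike: 7.95 and 8.45 in siStar-PAP, but 2.19 and 3.19 in siRBM10, below the commonest score of that list.
NEAT1 around positions 7163 and 7193, chr11:65197387-65197457, + strand: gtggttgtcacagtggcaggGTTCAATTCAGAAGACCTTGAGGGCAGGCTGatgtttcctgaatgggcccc
NEAT1 around positions 15119 and 15136, chr11:65205343-65205400, + strand: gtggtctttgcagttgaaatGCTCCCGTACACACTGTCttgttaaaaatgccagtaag

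**Figure D2:**
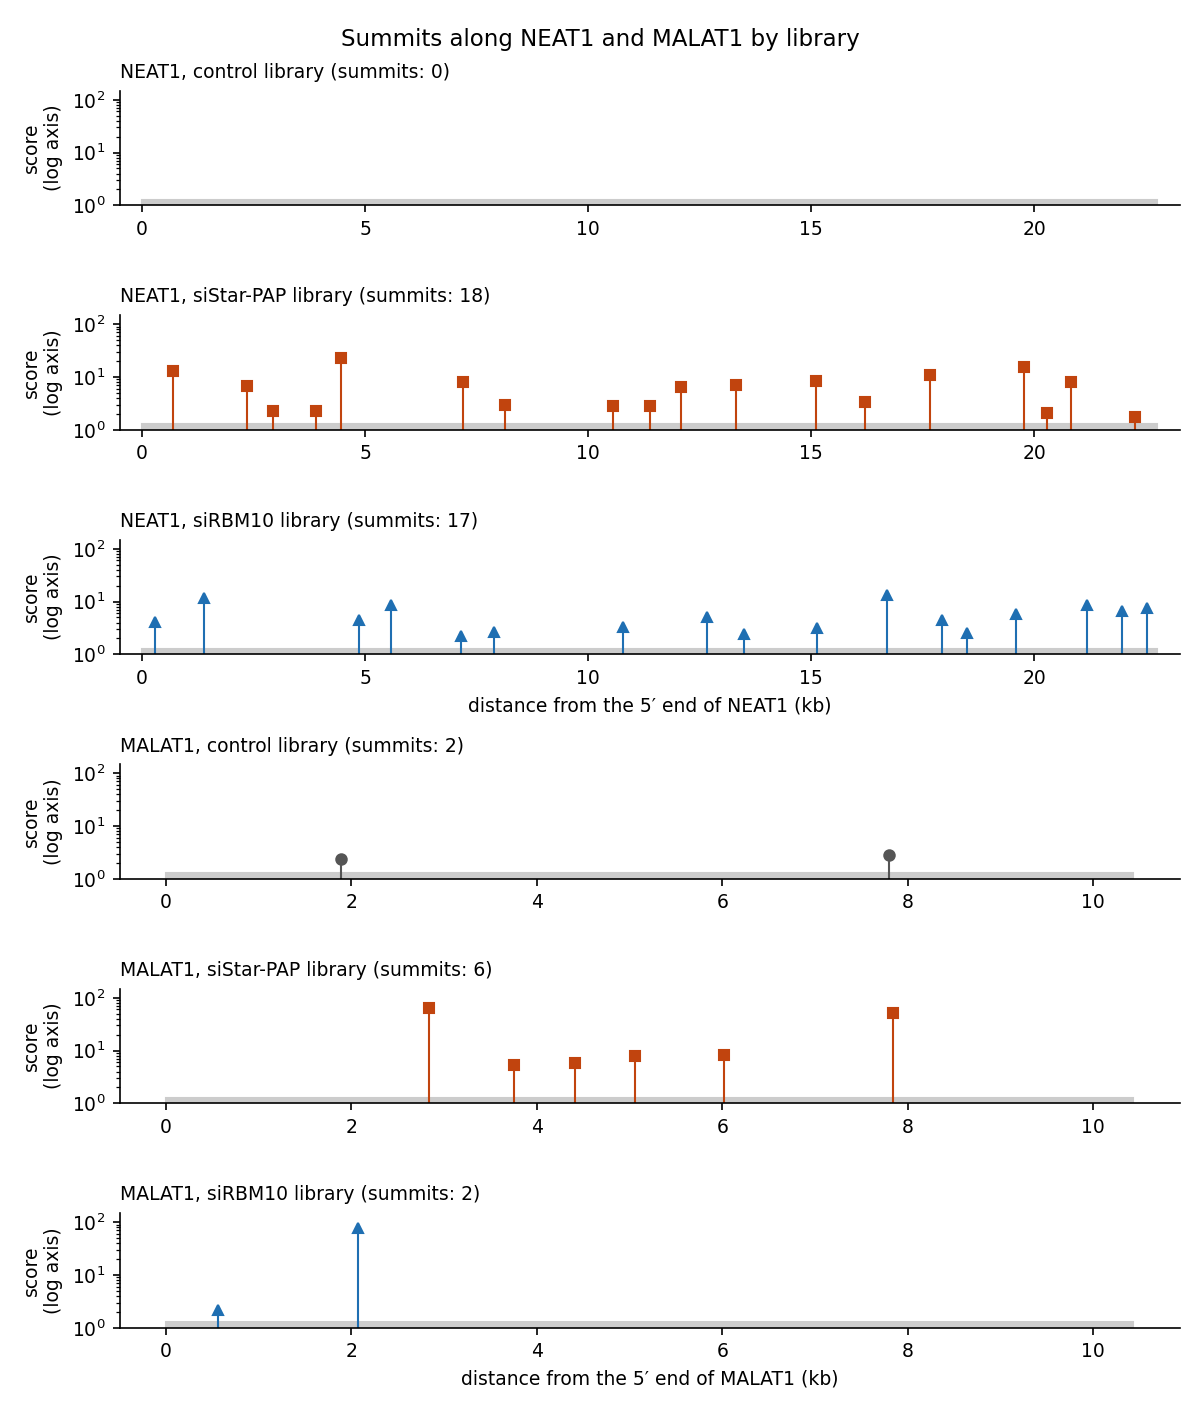
Summits along NEAT1 and MALAT1, 1 panel per gene and library, with the distance from the 5′ end in kb on the horizontal axis and the score as −log10 p on a log vertical axis; the grey bar is the gene. NEAT1 has 0, 18 and 17 summits in control, siStar-PAP and siRBM10, spread from end to end, and MALAT1 has 2, 6 and 2 with the highest scores at different positions.

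Counted together, the 8 loci (43.378 kb) held 3 summits in control (95% Poisson interval 0.619 to 8.77), 30 in siStar-PAP (20.2 to 42.8) and 25 in siRBM10 (16.2 to 36.9). These intervals cover counting error only, and do not include the spread between libraries of a condition, which is unknown. Per 100000 peaks of the list this was 0.729, 9.21 and 8.49. A summit was present at 2 of 8 members in control, 8 in siStar-PAP and 8 in siRBM10, beside 15.0%, 21.7% and 20.3% of 18222 autosomal lncRNA genes with a summit in an exon. The short members count here with their flanks, whereas the background counts exons alone. In control, 2 of 8 is too small a count to set apart from its background share, and in both depletion lists every member had a summit.

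Within the genes, without flanks, the density was 0.0848 summits per kb in control (0.0175 to 0.248), 0.820 in siStar-PAP (0.549 to 1.18) and 0.678 in siRBM10 (0.435 to 1.01). Autosomal lncRNA exons, 35200 kb without the members, had 0.104, 0.151 and 0.138 per kb. The ratio of members to lncRNA exons was 0.817 (0.168 to 2.39) in control, 5.43 (3.64 to 7.80) in siStar-PAP and 4.91 (3.15 to 7.31) in siRBM10. The control interval includes equal density and those of the depletion libraries do not, while the ratios of both depletion libraries were inside each other's intervals. Without NEAT1 the ratio was 2.29 in control, 5.78 in siStar-PAP and 4.02 in siRBM10, so the control value depended on that gene. With scores above the commonest of each list the ratios were 1.32, 31.45 and 23.17, and at p at most 0.01 they were 1.45, 6.81 and 5.88, so the control ratio, from 3 summits, had no fixed side of equal density.

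**Figure D3:**
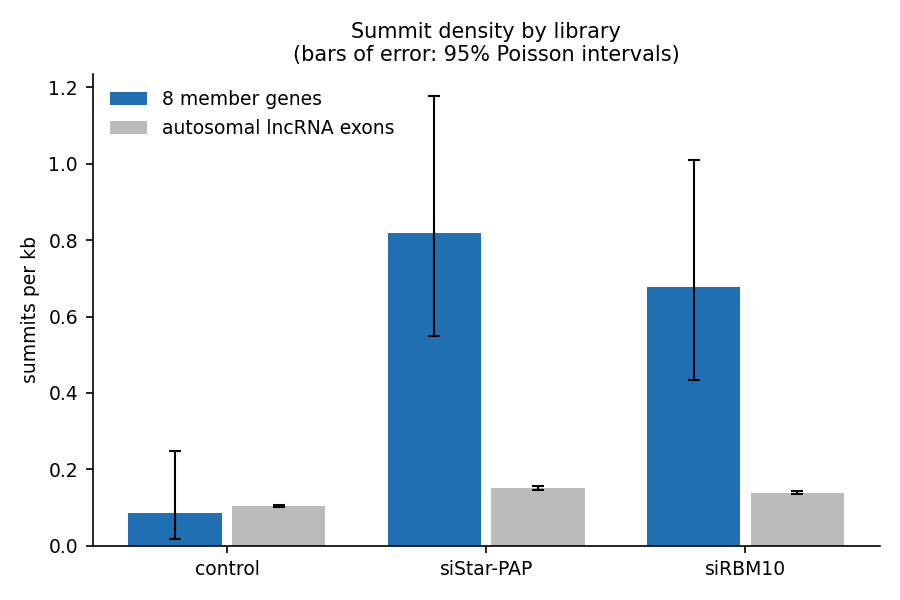
Summits per kb (vertical axis, from 0) of the 8 member genes (blue) and of autosomal lncRNA exons (grey) in the 3 libraries, with 95% Poisson intervals as error bars. The members had 0.0848, 0.820 and 0.678 summits per kb in control, siStar-PAP and siRBM10, and lncRNA exons 0.104, 0.151 and 0.138.

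Surroundings rich in peaks were looked at next, since MALAT1 and NEAT1 are neighbours on chromosome 11. The 500 kb on each side of NEAT1 held 0.0597 summits per kb in control, 0.239 in siStar-PAP and 0.217 in siRBM10, and NEAT1 itself 0 (upper limit 0.162), 0.791 (0.469 to 1.25) and 0.747 (0.435 to 1.20). The sides of MALAT1 held 0.0564, 0.242 and 0.212, and MALAT1 itself 0.192 (0.0232 to 0.692), 0.575 (0.211 to 1.25) and again 0.192. The region around both genes thus had fewer control summits and more depletion summits than the autosomes as a whole, with 0.143, 0.114 and 0.103 per kb. The 10 kb on each side of NEAT1 held 0.158, 0.421 and 0.105 per kb, from 3, 8 and 2 summits. The lower limit of NEAT1 was above both of these values in each depletion list, by little over the near one in siStar-PAP. The near values rest on few summits and carry no interval here, so NEAT1 is not shown to be denser than its near sides in siStar-PAP. The interval of MALAT1 included the density of its 500 kb sides in all 3. The 10 kb on each side of MALAT1 held 0.0526, 0.158 and 0.211 per kb, from 1, 3 and 4 summits. The MALAT1 interval included these near values in control and siRBM10, and its lower limit was above the near value in siStar-PAP. These near values also rest on few summits and carry no interval here.

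Among 9304 autosomal lncRNA genes with at least 1 kb of exon, NEAT1 had rank 3 by number of summits in siStar-PAP and rank 1 in siRBM10. By density it was rank 393 and rank 386, with 4.21% and 4.14% of genes denser. MALAT1 had density ranks 1824 in control, 863 in siStar-PAP and 2416 in siRBM10, and in siRBM10 25.96% of the genes were denser. Other well-known lncRNAs differed among themselves. H19, an imprinted RNA, had 0, 3 and 0 summits, NORAD, an abundant RNA of the cytoplasm, 0, 4 and 1, and KCNQ1OT1, a long antisense RNA of an imprinted domain, 14, 19 and 13. GAS5, a host gene of small nucleolar RNAs, had 2, 0 and 2. SNHG14 had 22, 10 and 8 and NUTM2A-AS1 had 5, 1 and 2, so both were highest in control. The rest of the ranked list was highest in siStar-PAP, as MALAT1 and NEAT1 were: MEG3 had 0, 5 and 2, MIAT 1, 6 and 2, and OIP5-AS1 3, 6 and 4. SNHG1 had 0, 2 and 0 and SNHG5 1, 2 and 1. The order control, siStar-PAP, siRBM10 applies to each. Per kb of exon in siStar-PAP, H19 had 0.867 and NORAD 0.741 summits, beside 0.791 for NEAT1. In siRBM10 H19 had 0 and NORAD 0.185, beside 0.747 for NEAT1.

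Many member summits had high scores in the depletion lists. At least 10 was reached by 12 of 30 member summits in siStar-PAP (40.0%, exact binomial interval 22.7 to 59.4%) and by 9 of 25 in siRBM10 (36.0%, 17.97 to 57.5%), and by 0 of 3 in control. Members made up 12 of the 100 highest peaks of siStar-PAP and 8 of those of siRBM10, with none in control. Of the 1000 highest peaks they made up 19, 12 and 0. Ranks 6 to 9 of siStar-PAP were all members, in the order MALAT1, RPPH1, MALAT1 and RN7SK, and ranks 5 to 7 of siRBM10 were RPPH1, MALAT1 and RMRP. Not all member summits were high: in siStar-PAP, the lowest was the NEAT1 summit at position 22255 with 1.73, and in siRBM10 MALAT1 562 and NEAT1 7163 had 2.19.

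**Figure D4:**
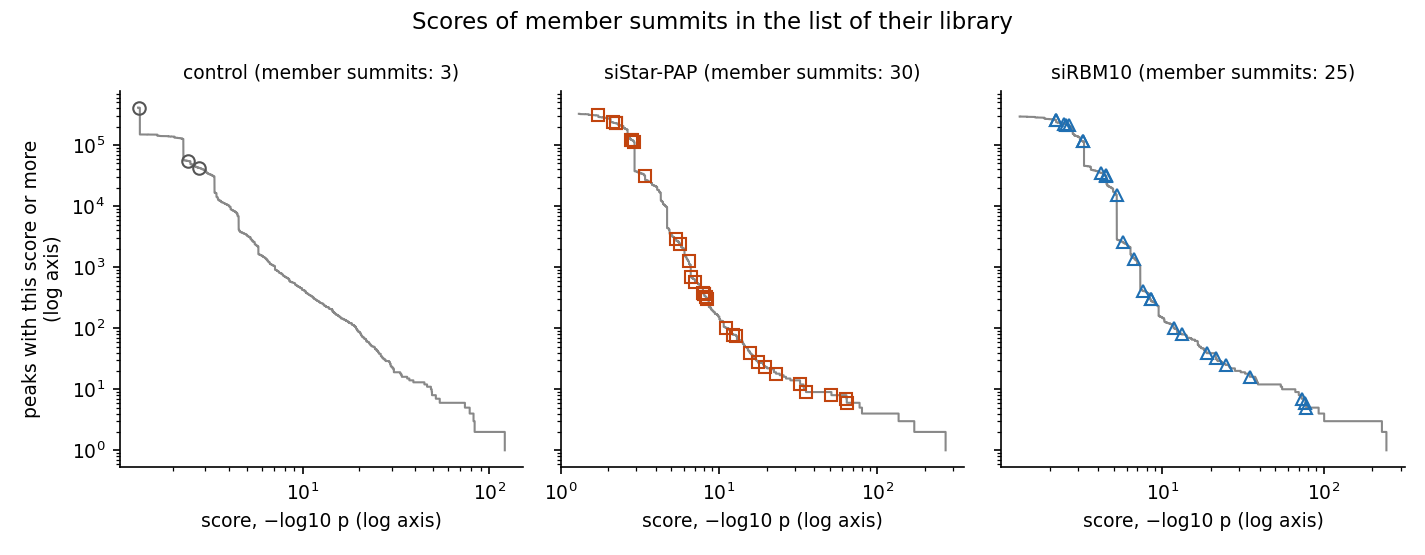
Number of peaks with a given score or more (vertical log axis) against the score as −log10 p (horizontal log axis) in each list, with member summits as open symbols on the curve. The 3 control members lie at scores up to 2.77, and those of siStar-PAP and siRBM10 reach 64.0 and 77.8.

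Coincidence between the depletion libraries lay mostly in the short RNAs. Within 100 bp, 8 of 30 siStar-PAP summits had a siRBM10 summit (26.7%, 12.3 to 45.9%), of which 6 were the short RNAs and 2 were in NEAT1. At 5 of these short RNAs both summits were inside a gene of 264 to 328 bp, so gene length alone keeps them close. The total therefore says little about agreement between the libraries. In the long genes, 0 of 6 MALAT1 and 2 of 18 NEAT1 summits coincided, beside 3.52% and 14.4% of their loci. Of the 8 loci, flanks included, 11.6% lies within 100 bp of a siRBM10 summit, and of all siStar-PAP summits in the list 4.49% had one that close. In the other direction it was 8 of 25 (32.0%), beside 13.9% of the loci and 4.97% of all siRBM10 summits. Of the control summits, 1 of 3 had a siStar-PAP summit within 100 bp and 0 of 3 a siRBM10 summit. High peaks coincide more often in general: at scores of at least 10, 49.3% of all siStar-PAP summits had a siRBM10 summit within 100 bp and 6 of 12 member summits did, and 69.0% of all siRBM10 summits had a siStar-PAP one and 6 of 9 member summits did. In both directions these 6 were the short RNAs. No MALAT1 or NEAT1 summit at such scores coincided, the smallest distances being 168 bp in siStar-PAP and 488 bp in siRBM10. The member shares at these scores thus combine short RNAs that all coincided with long RNAs that did not. All 3 lists were called against the same IgG library, so they are not independent.

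Sequence around the summits was read in windows of 41 nt on the strand of the RNA. The trinucleotide AUA, searched as ATA on that strand alone and part of the motif described for Star-PAP, was in 10 of 30 siStar-PAP windows (33.3%), 7 of 25 siRBM10 windows (28.0%) and 1 of 3 control windows. Of all windows along the 8 genes, 36.3% hold it. The share with AUA at the summits of both depletion libraries was not above that along the same RNAs. The median GC content of the windows was 47.6% in siStar-PAP and 53.7% in siRBM10, while the genes had 42.0% (MALAT1), 44.1% (NEAT1) and 54.2 to 65.1% (the short RNAs).

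The mRNAs of the proteins that work with these RNAs were counted from 4 lists of 33 genes in all. A summit lay in an exon of 16 of them in control, 25 in siStar-PAP and 23 in siRBM10, beside 35.4%, 58.3% and 55.8% of 20163 protein-coding genes. Per kb of exon they had 0.0991, 0.286 and 0.303 summits, and all protein-coding exons 0.103, 0.225 and 0.203. The paraspeckle list (NONO, SFPQ and 6 others), whose proteins gather on NEAT1, had a summit in 5, 8 and 7 of 8 genes. The signal recognition particle list had one in 5, 6 and 7 of 8, the RNase P and MRP list in 4, 6 and 5 of 10, and the 7SK particle list in 2, 5 and 4 of 7. In the depletion libraries each of the 4 lists had a lower density than the 8 non-coding RNAs as a group, the highest being 0.387 per kb for the paraspeckle list in siRBM10.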

How the data were processed

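HITS-CLIP of Star-PAP was measured in 3 libraries of HEK293 cells, 1 per condition, with an IgG library as the fourth sample. As the methods and the submitters' processing notes state, reads were filtered and collapsed with the CLIP Tool Kit, trimmed with cutadapt 1.14, checked with FastQC 0.72 and mapped to hg19 with BWA 0.7.12. Reads at 1 locus with at least 18 nt were kept, tags with the same start were collapsed, and peaks were called with MACS2 (version not given in the sources used here) against IgG at p 0.05 with a fragment size of 500. The lists deposited by the authors hold a 1-bp summit per peak scored as −log10 p; tag numbers are not in these lists, so the depth of each list is not known from the files, beyond approximate read totals in the methods and results of the study.

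From there, summits were assigned without strand to gene spans of GENCODE release 44 on hg19 with 500 bp on each side. RN7SL1 and RPPH1, which that annotation lacks by name, were placed by alignment of RN7SL2 and of an RPPH1 copy (Biopython 1.88). Coincidence meant summits within 100 bp. LncRNA exons were the union over all autosomal lncRNA genes with the members taken out. Words were counted on both strands of hg19. Poisson and exact (Clopper-Pearson) binomial intervals at 95% (scipy 1.17.1, Python 3.11.15) cover counting error only. RefSeq was used for RNA lengths. The scripts were checked on simulated lists. No test between conditions was made, since each had 1 library. The members and lists were chosen with earlier results of these data known. All 8 members were named whatever their values. Related RNAs were named where they held a summit in all 3 lists or belonged to the same RNA as a member. RNU2-2P was added for its score. Other lncRNAs were those of a fixed list that could be ranked. Alternatives were p at most 0.01, scores above the commonest of the list, no flank or 1000 bp, lncRNA exons free of coding exons, members with flanks, distances of 50, 250 and 500 bp, and, added after the data were seen, the values without NEAT1. The sequences around the RN7SL1 and RN7SL2 summits are not reported here.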

Additional observations from a re-analysis of the deposited data

How the results depend on the processing

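Of 42 values under alternative settings, 34 stayed within 1.5 times the main count or inside the interval of the main ratio, and 8 moved. Without NEAT1, an alternative chosen after seeing the data, the loci held 12 summits in place of 30 in siStar-PAP and 8 in place of 25 in siRBM10, and 3 as before in control. With only scores above the commonest of each list, the density ratio to lncRNA exons was 31.45 in place of 5.43 in siStar-PAP and 23.17 in place of 4.91 in siRBM10; the cause was not tested. The ratio in control, from 3 summits, lay between 0.666 and 2.29 and thus on both sides of equal density. With a wider distance, control summits with a siStar-PAP summit nearby were 2 within 500 bp in place of 1, control summits with a siRBM10 summit nearby were 1 within 250 bp and 2 within 500 bp in place of 0, and siStar-PAP summits with a siRBM10 summit nearby were 18 within 500 bp in place of 8, as a wider distance must hold at least as many; 53.9% of the loci is within 500 bp of a siRBM10 summit. No paired analysis was possible because each condition had 1 library. Without tag numbers, a missing summit at a short gene, such as those of the control list, has no limit in tags.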
